A study of Mus musculus with 2207 samples.

Results

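The clustered protocadherin genes were examined in single nuclei of mouse brain cortex. A gene was taken as a member by its symbol alone (Pcdha, Pcdhac, Pcdhb, Pcdhga, Pcdhgb or Pcdhgc followed by a number), which gave 58 members among the 52636 genes of the tables. On chromosome 18 (mm10, plus strand) 14 of them form the alpha cluster from 36930184 to 37187661, with 12 Pcdha and 2 Pcdhac genes. The beta cluster of 22 Pcdhb genes lies from 37264938 to 37524479, and the gamma cluster of 22 genes, with 12 Pcdhga, 7 Pcdhgb and 3 Pcdhgc genes, from 37661793 to 37841873. One symbol, Pcdha11, stands for 2 neighbouring genes (ENSMUSG00000007440.10 and ENSMUSG00000102206.5), which are named here with their identifiers.

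The nuclei came from a mouse model of Kleefstra syndrome, in which 1 copy of Ehmt1 is lost. Ehmt1 encodes GLP, which with G9a dimethylates histone H3 at lysine 9. The 2207 nuclei belonged to 6 pools, each made from the cortex of 3 C57BL/6 mice at 14 weeks of age, and every mouse had received tamoxifen at 3 weeks of age (2 doses of 100 mg/kg). Nuclei sorted into 96-well plates (730 in all) came from an Ehmt1+/+ pool (WT) and an Ehmt1Δ/+ pool, neither of which carried a transgene. The 384-well nuclei (1477) came from 4 pools, all carrying the Ehmt1 iTg transgene. By their genotype labels the WT and Ehmt1Δ/+ pools of this format lacked CamKII-CreER, which the transgene needs to be switched on. The text of the study describes the 4 groups of this format together as mice with CamKII-CreER, and the labels are followed here. The iTg pool (Ehmt1+/+) and the Ehmt1Δ/+; iTg pool carried CamKII-CreER, which drives GLP in forebrain neurons after tamoxifen. The labels do not say which of the 3 mice of a pool a nucleus came from, so the pool is the unit of replication throughout, and p-values measure the spread between pools.

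Clustered protocadherins are cell surface proteins that bind like with like between neighbouring membranes, and the combination a neuron makes is thought to let its branches tell self from non-self. In the alpha and gamma clusters each gene has its own large first exon (the variable exon) with its own promoter, and this exon is spliced to 3 short constant exons shared by the whole cluster. The beta genes are single exons with no shared part. Most variable exons are chosen by chance, differently in each neuron, through promoters bound by CTCF and cohesin and silenced by DNA methylation and H3K9 methylation. The last 2 alpha genes (Pcdhac1, Pcdhac2) and the last 3 gamma genes (Pcdhgc3, Pcdhgc4, Pcdhgc5) are called C-type and are used in a more regular, cell-type-related way.

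The labelled cell types held their defining transcripts. The sum of the 4 neuron markers Snap25, Rbfox3, Syt1 and Meg3 was 893 to 1067 RPKM (reads scaled to the depth of a nucleus and the exon length of a gene) in the 1664 neurons of the 6 pools. Glia of the 96-well WT pool stood apart, with sums of 60.7 RPKM in microglia and 51.7 in oligodendrocytes against 6.20 to 18.3 in the glia of the other pools. The median depth of a pool's neurons was 323273 to 397880 reads. Glia of the 384-well pools were shallow, with medians of 39940 to 54877 reads, against 441701 to 510639 in 96-well plates. The Ehmt1 level went against its label. Its mean in neurons was 18.7 RPKM in the 96-well WT pool, 19.5 in the 384-well WT pool and 20.7 in the iTg pool, but 31.2, 31.7 and 33.9 RPKM in the matching pools labelled Ehmt1Δ/+, so these are called "labelled Ehmt1Δ/+" below. Whether reads from exons left by the deleted allele enter this count was not tested.

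Reads of the constant exons were divided evenly among the genes of a cluster in the deposited values, and this had to be undone before any member could be read. A read shared by 14 alpha genes adds 0.0714 reads to each, and one shared by 22 gamma genes adds 0.0455. Only 1.57 to 11.2% of the alpha values above 0 and 2.57 to 8.45% of the gamma values were whole reads, against 21.5% (Pcdhb12) to 100% (Pcdhb1) of the beta values. The difference between Pcdhac1 and Pcdhac2 was a whole number of reads in 2207 of 2207 nuclei, although 1505 of the 1690 Pcdhac1 values above 0 were not whole. For each nucleus the smallest value in a cluster was therefore taken as its shared part, and what a member held beyond it as own reads of the variable exon. The 2 smallest values were equal in 41.7% of nuclei in the alpha cluster and 80.02% in the gamma cluster. Where they differ, the shared part can also hold own reads of the lowest gene. By construction at least 1 gene of either cluster has no own reads in a nucleus. Own-read shares of low genes such as Pcdha1, and numbers of genes with own reads, can therefore be too low. The shared part made up 17.8% of all alpha reads and 7.77% of all gamma reads. It was above 0 in 73.9% and 83.3% of the nuclei, so a value above 0 said little about whether a gene was itself transcribed.

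In neurons nearly every alpha and gamma gene was listed above 0 in nearly every nucleus, but own reads separated the members widely. Alpha genes were above 0 in 97.8 to 99.7% of the 1664 neurons. Own reads of Pcdha1, the first gene of the cluster, were present in 36.2% of neurons, and those of Pcdha12, the last before the C-type genes, in 97.2%. In the gamma cluster the share ran from 17.4% of neurons for the first gene, Pcdhga1, to 98.3% for Pcdhga12. Beta genes have no constant exons, so nothing was taken off, and reads divided with other loci remain in their values. They were found in fewer neurons, from 2.89% (Pcdhb1) to 59.7% with own reads (Pcdhb19, chosen after its values were seen). The C-type genes were at 92.2 to 92.6% for the alpha pair and 83.1 to 98.3% for the gamma C-type genes. Variable gamma genes had similar shares, with medians of 88.1% over Pcdhga and 92.7% over Pcdhgb genes. The median of the Pcdha genes lay below the alpha pair, although Pcdha12 lay above it. A high share thus did not set the gamma C-type genes apart from the variable gamma genes.

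Microglia set the background of these shares. Own reads of an alpha gene were found in 0 to 1.37% of microglia, and of a beta gene in 0 to 2.74%. No microglial nucleus and 0 of 397 oligodendrocytes had own reads of Pcdhb1, with exact 95% upper bounds of 2.49% and 0.925% that cover counting error only. In contrast Pcdhga genes had own reads in 19.2 to 47.3% of microglia and Pcdhgb genes in 29.5 to 50%, and in oligodendrocytes these ranges were 9.32 to 57.7% and 29.97 to 51.9%. Because glia of the 384-well pools were sequenced several times less deeply than neurons, shares in glia and neurons are not compared and levels are used instead.

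**Figure D1:**
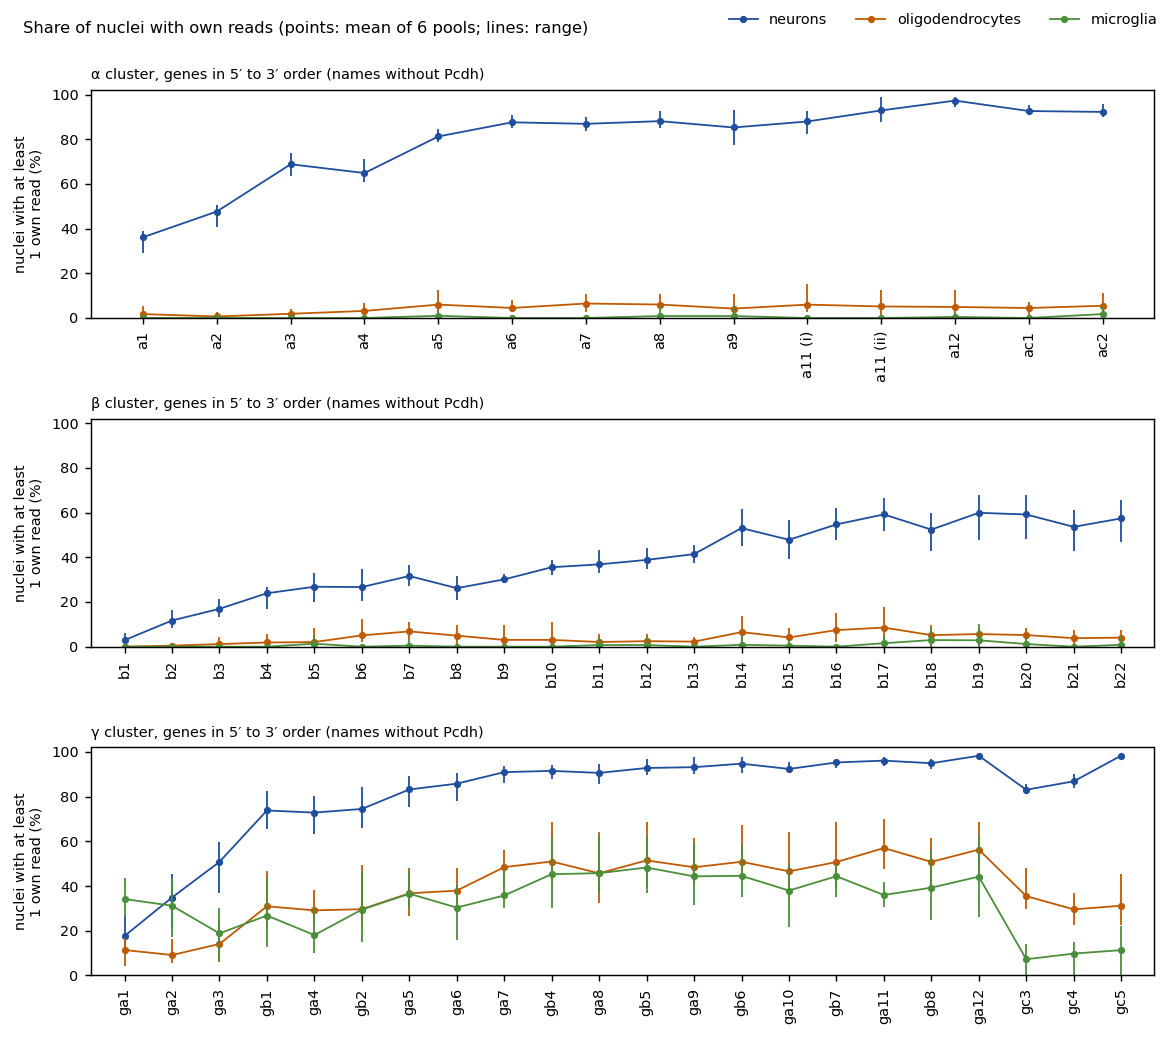
Share of nuclei with at least 1 own read (y axis, %) for each member in its order along the alpha, beta and gamma clusters (x axis), in neurons, oligodendrocytes and microglia, as the mean of 6 pools with their range as a line. In neurons the share climbs from the first genes of each cluster (Pcdha1 36.2%, Pcdhb1 2.89%, Pcdhga1 17.4%), and in microglia it stays near 0 along the alpha and beta clusters.

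Levels in neurons tended to be higher toward the end of each cluster. As RPKM (mean ± SD of 6 pool means), Pcdhgc5 was highest at 13.7 ± 2.03, followed by Pcdhga12 at 11.7 ± 1.76 and Pcdhga7 at 11.2 ± 0.731. The pools of these 3 genes overlapped (10.2 to 15.8, 9.32 to 13.3 and 9.98 to 12.1 RPKM), so their order is not separated by the spread. Pcdha12 led the alpha cluster at 9.90 ± 0.771 and Pcdhac1 reached 8.83 ± 0.435. Pcdhb16 led the beta genes at 5.92 ± 1.45, and Pcdhb1 was the lowest member at 0.124. Expressed per kilobase of the member's own exons and without the shared part, the level rank-correlated with position in the cluster at a Spearman rho of 0.601 over 12 alpha genes, 0.800 over 22 beta genes and 0.444 over 19 gamma genes. For the same clusters rho was 0.462, 0.485 and 0.425 in oligodendrocytes. In microglia, where few nuclei had own reads of alpha and beta genes, it was 0.577, 0.608 and 0.426. These are descriptions across genes of the same libraries, which are not independent.

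Own reads of neighbouring genes were often found in the same nucleus. Once the most upstream exon with own reads was found in a neuron, 86 to 92.2% of the alpha exons downstream of it also held own reads, depending on the pool. For the gamma cluster this was 92.7 to 95.1%, and for the beta cluster 50.8 to 61.1%. Exons before the first are without own reads by construction, and over all positions of these nuclei the shares were 74.8 to 79.5%, 74.7 to 84.7% and 35.9 to 43.6%, so the comparison gives no measure of linkage. Pairs of neighbours were therefore compared, and some are named here after their values were seen. Pcdhga4 had own reads in 95.7% of neurons with own reads of Pcdhgb1, the gene before it, and in 8.43% of the others. Pcdhb3 had them in 83% of neurons with Pcdhb2 reads and in 8.23% of those without, whereas Pcdhb9 had them in 49.1% with Pcdhb8 and 23.5% without. A nucleus holds unspliced transcripts, and one that starts at an upstream promoter runs through the downstream variable exons. Thus use of a promoter and read-through from the promoter before it cannot be told apart in these values. Deeper nuclei also give more own reads of every gene, and the part of depth in these pairs was not tested. Exons of another gene overlap the own exons of Pcdhga10 wholly (100% of bases) and those of Pcdha4 (86.1%), Pcdha11 (ENSMUSG00000102206.5, 72.9%), Pcdhb12 (63.5%), Pcdhga11 (52.4%) and Pcdhgc3 (46.1%) in part, and their values are uncertain. Pcdhgb7 (29.7%), Pcdha6 (24.8%) and Pcdha12 (21.5%) overlap less. The 6 further members with an overlap are Pcdhga7 (17.3%), Pcdhga8 (16.6%), Pcdhgc5 (16.4%), Pcdha7 (13.6%), Pcdhga1 (12.5%) and Pcdhga12 (9.28%). The part of the overlapping genes in the values of these members was not tested. The strand setting of the counting was not given.

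Most alpha and beta genes were lower in glia than in neurons, whereas the levels of most gamma A and B genes in glia overlapped those in neurons. Summed over the cluster, alpha genes had 419 to 491 RPM (reads scaled to the depth of a nucleus, without regard to length) in neurons, 20.95 to 46.4 in oligodendrocytes and 0 to 7.95 in microglia. Beta genes had 225.4 to 405 RPM in neurons, 12.8 to 141.05 in oligodendrocytes and 0 to 42.3 in microglia. Gamma genes had 810 to 1030 RPM in neurons, 664 to 972 in oligodendrocytes and 545 to 897 in microglia, so that neurons and oligodendrocytes overlapped. The largest alpha and beta sums in oligodendrocytes were those of the 96-well WT pool, whose glia carried the most neuronal marker RNA, and the part of this RNA in the sums was not tested.

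The 6 pool means of neurons lay above all 6 of oligodendrocytes, without overlap, for 12 of 12 Pcdha genes, both Pcdhac genes, 17 of the 20 Pcdhb genes that passed the filter, 0 of 12 Pcdhga genes, 0 of 7 Pcdhgb genes and 1 of 3 Pcdhgc genes. That is 32 of the 56 members that passed the filter, of 58, where 32.3% of all 22113 genes tested lay above and 10.3% below. Against microglia 36 of 56 members lay above (30.1% of 22435 genes tested) and 1 below (12.4%). The filter asked for a gene above 0 in at least 10% of nuclei in every pool of either cell type. The Pcdha, Pcdhac and Pcdhb genes that passed did so through neurons alone, where they are high, which favours a count above. The cell type labels were also made from clusters over all genes of these nuclei. These counts are therefore descriptions and carry no test. Among the Pcdhgc genes Pcdhgc5 was the 1 that separated neurons from oligodendrocytes. Its own-exon level was 13.5 to 21.5 RPKM in neurons, 3.52 to 8.20 in oligodendrocytes and 0.0305 to 6.36 in microglia. Pcdhgc3 was at 4.89 to 6.37 RPKM in neurons and 4.56 to 7.01 in oligodendrocytes, and only microglia, at 0.0758 to 2.40, were apart. Pcdhac1 was at 15.8 to 18.1 RPKM in neurons, 0.103 to 1.63 in oligodendrocytes and listed at 0 in microglia of all 6 pools.

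**Figure D2:**
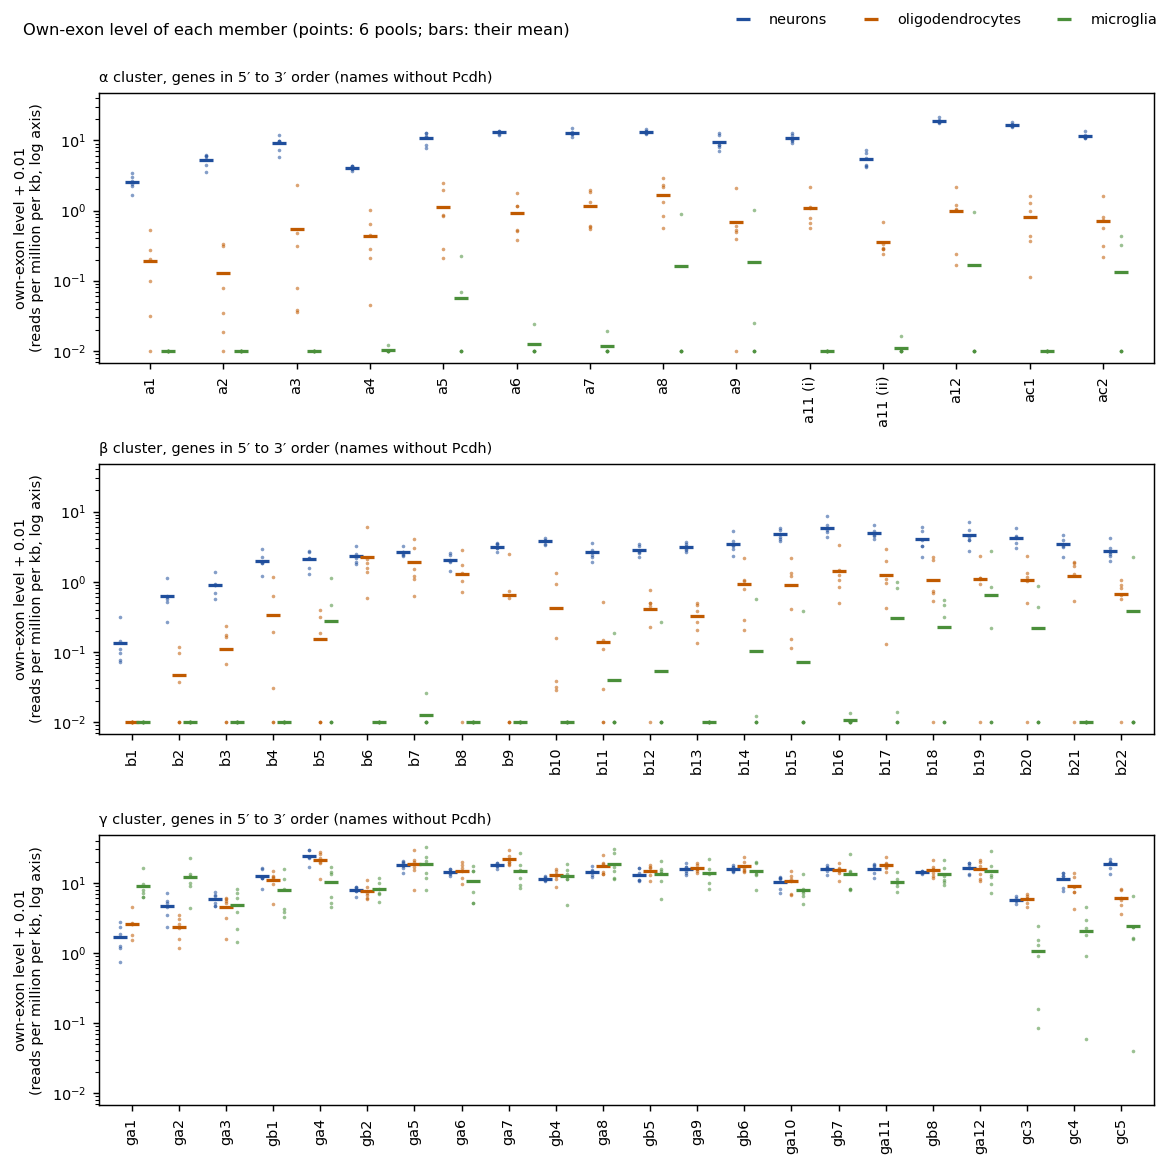
Own-exon level of each member (y axis, RPKM of own reads over own exons plus 0.01, log axis) in neurons, oligodendrocytes and microglia, with a point for each of 6 pools, a bar at their mean and members in chromosomal order on the x axis. Most alpha and beta genes are lower in both kinds of glia, whereas most Pcdhga and Pcdhgb genes stay at similar levels, and Pcdhga1 is higher in microglia than in neurons.

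Pcdhga1, the first gene of the gamma cluster, was the 1 member with microglia above neurons in all pools. Its own-exon level in microglia was 7.20 RPKM in the 96-well WT pool, 9.63 in the 96-well labelled Ehmt1Δ/+ pool, 6.26, 6.32 and 7.99 in the 384-well WT, labelled Ehmt1Δ/+ and iTg pools, and 16.3 in the Ehmt1Δ/+; iTg pool. Neurons of the same pools were at 2.30, 1.18, 2.73, 0.729, 1.23 and 1.82 RPKM. Every microglial value was above every neuronal one. The 384-well microglial values rest on 13 to 52 reads summed over 16 to 23 nuclei a pool, against 453 and 538 reads in the 96-well pools. Pcdhga2, the next gene, had a mean own-exon level of 11.9 RPKM in microglia and 4.65 in neurons, but the pools overlapped. Of the defining microglia markers Csf1r was at 801 to 960 RPKM in microglia and 1.01 to 2.08 in neurons.

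A neuron held own reads of most genes of the alpha and gamma clusters and of a smaller share of the beta genes. Neurons had own reads of 8.98 to 9.54 of the 12 variable alpha genes on average over the pools, of 14.1 to 16.1 of the 19 variable gamma genes, and of 4.46 to 4.59 of the 5 C-type genes. All 5 C-type genes had own reads in 61.4 to 68.3% of neurons. Of the 22 beta genes a neuron held own reads of 7.42 to 9.52 on average. Thinning brought neurons to 1 depth within each plate format (298762 reads in 96-well and 48585 in 384-well plates). The 384-well pools then held 5.93 to 6.56 alpha, 4.73 to 5.92 beta, 10.9 to 12.5 gamma and 3.39 to 3.64 C-type genes, so these numbers depend on depth. In the 96-well pools, where thinning left out 27 and 43 neurons below that depth, the alpha numbers were 9.54 and 9.31 before and 9.86 and 9.71 after thinning. Thinning also rounded fractions of an own read up or down at random, so a value below 1 read could count. Numbers before and after thinning are therefore not the same measure.

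Pcdhgc4 and Pcdhgc5, both C-type, had the largest differences between inhibitory and excitatory neurons among the members. Neurons were divided by the larger of Slc17a7 and Gad1, which uses no member, and compared within pools with limma on log2(mean RPKM + 0.1), with Benjamini-Hochberg adjustment over all genes tested. Of 56 members tested (all but Pcdhb1 and Pcdhb2, which were too rare), 10 were higher and 1 lower in inhibitory neurons at an adjusted p under 0.05, where 22.9% of all 22420 genes were called higher and 21.1% lower. The median log2 difference of the members was 0.14, against 0.02 for all genes. The share of members called was thus below that of all genes.

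The C-type genes of the gamma cluster moved in opposite directions. Pcdhgc4 was at 5.13, 4.56, 8.19, 8.40, 7.95 and 7.51 RPKM in excitatory neurons (96-well WT and labelled Ehmt1Δ/+, then 384-well WT, labelled Ehmt1Δ/+, iTg and Ehmt1Δ/+; iTg). Inhibitory neurons of the same pools were at 9.55, 9.24, 9.11, 12.4, 13.3 and 12.6 RPKM, above every excitatory value. It was higher in inhibitory neurons by 0.68 on the log2 scale (SE 0.116, limma adjusted p = 0.00274), in 6 of 6 pools. Pcdhgc5 went the other way, with 14.2, 10.8, 15.9, 16.5, 15.8 and 15.6 RPKM in excitatory and 7.02, 7.32, 9.72, 12.6, 10.4 and 10.3 RPKM in inhibitory neurons of these pools. Its log2 difference was -0.64 (SE 0.0903, limma adjusted p = 0.00112), lower in 6 of 6 pools, although the ranges of the classes overlapped between plate formats. Pcdhac2 was higher by 0.37 (SE 0.0954, limma adjusted p = 0.0178), with a mean of 8.41 ± 1.11 RPKM in inhibitory and 6.50 ± 0.816 in excitatory neurons (SD, 6 pools). Pcdhac1 (-0.05) and Pcdhgc3 (0.09) did not pass the test. The shared part adds the same number of reads to every gamma gene of a nucleus.

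**Figure D3:**
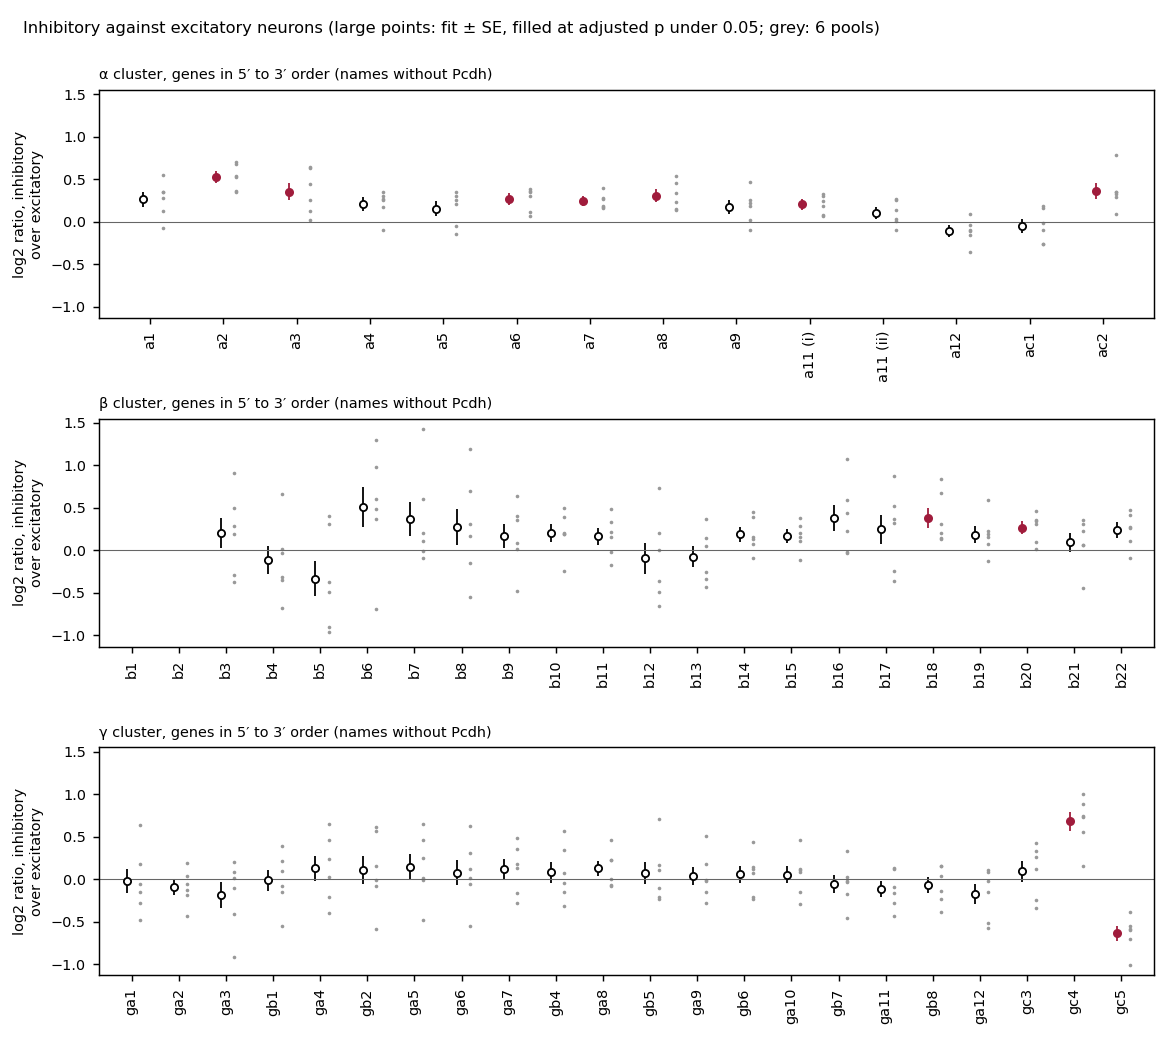
Log2 difference of inhibitory from excitatory neurons for each member tested (x axis, members in chromosomal order; y axis, log2 of the ratio of mean RPKM + 0.1), with the SE as bars, members past an adjusted p of 0.05 filled and the 6 pools in grey. Pcdhgc4 (0.68) and Pcdhgc5 (-0.64) lie at opposite ends, and most Pcdha genes lie a little above 0.

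The alpha genes leaned to inhibitory neurons. Of 12 Pcdha genes 11 had a positive difference and 6 passed the test. Pcdha2 had the largest difference of them, from 2.69 to 3.34 RPKM over the pools in excitatory neurons to 3.45 to 5.29 in inhibitory neurons, without overlap. Its log2 difference was 0.53 (SE 0.0751, limma adjusted p = 0.00118). Pcdha3 (0.35), Pcdha8 (0.31), Pcdha6 (0.27), Pcdha7 (0.25) and Pcdha11 (ENSMUSG00000007440.10, 0.20) also passed, each higher in 6 of 6 pools. Pcdha12, the most abundant alpha gene, had a difference of -0.11 that did not pass. Of 20 Pcdhb genes 16 had a positive difference, and Pcdhb18 (0.38, limma adjusted p = 0.0311) and Pcdhb20 (0.27, 0.0304) passed. Pcdhb6 had a larger difference of 0.51, but its SE was 0.237 and its adjusted p 0.122. None of 12 Pcdhga and 7 Pcdhgb genes was called. In the 96-well labelled Ehmt1Δ/+ pool the oligodendrocyte precursor markers summed to 43.5 RPKM in the inhibitory class, against 1.64 to 4.24 in the other pools. The astrocyte markers moved with the classes in all 6 pools, with sums of 27.6 to 66.3 RPKM in excitatory and 2.61 to 12.97 in inhibitory neurons. The part of either in these differences was not tested.

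Pcdha2, Pcdhgc4 and Pcdhgc5 were called in all 14 alternative analyses of this comparison, which included leaving out each pool. Pcdha7, Pcdha8 and Pcdhac2 were called in 12 of them. The other calls were less firm, with Pcdha6 called in 9, Pcdha3 and Pcdhb18 in 8, Pcdha11 in 7 and Pcdhb20 in 6. Without a pool the number of members called ranged from 6 to 14.

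Within the inhibitory class the C-type genes differed between marker subclasses. Each inhibitory neuron was assigned by the largest of Sst, Pvalb, Vip and Lamp5 and each excitatory neuron by Cux2, Rorb, Fezf2 and Foxp2, after scaling, and levels are given without a test as RPM of own reads. Pcdhac2 was at 62.3 ± 8.15 (53.5 to 72.1 over 6 pools) in the Pvalb subclass, 34.01 in Sst, 23.6 in Vip and 40.3 in Lamp5, and 29.7 to 36.4 in the 4 excitatory subclasses. Pcdhgc5 had its lowest mean in the Pvalb subclass (48.7), with 68.9 in Sst, 70.8 in Vip, 93.6 in Lamp5 and 92.8 to 124.8 in excitatory subclasses. Pcdhgc4 was at 51.3 to 63.6 in Pvalb, Lamp5 and Sst neurons and at 32.3 to 38.1 in the excitatory subclasses, while its Vip value of 89.2 ± 58.2 rests on as few as 3 nuclei a pool. The 92 Pvalb, 84 Sst and 90 Lamp5 neurons were enough for a mean in every pool.

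**Figure D4:**
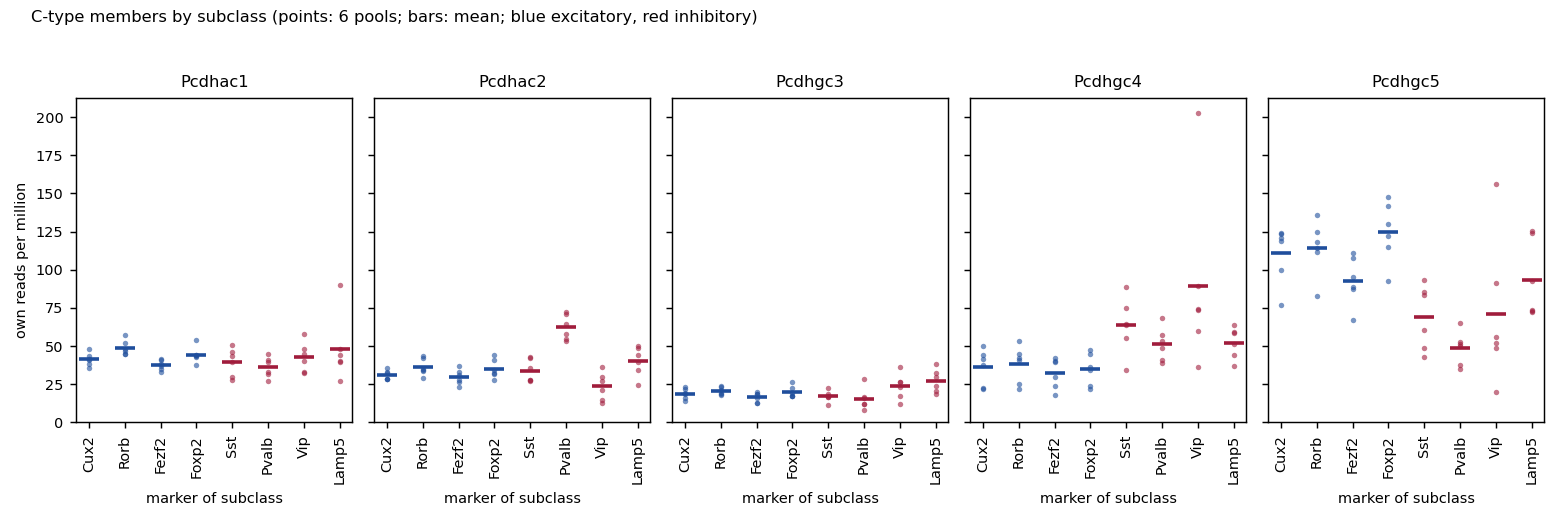
Own-read RPM (y axis) of the 5 C-type genes in neuron subclasses named by their marker gene (x axis), with a point for each of 6 pools and a bar at their mean (blue, excitatory; red, inhibitory). Pcdhac2 peaks in the Pvalb subclass (62.3), where Pcdhgc5 has its lowest mean (48.7).

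Genes whose mean levels were most like those of the C-type genes over the 18 means of pool and cell type were looked up among 22735 genes. They were Cacng5 for Pcdhac1 (Pearson r = 0.985), Cntnap4 for Pcdhac2 (0.975), Rab11fip4 for Pcdhgc3 (0.974), Gm43916 for Pcdhgc4 (0.947) and Slc11a2 for Pcdhgc5 (0.931). These r values describe means that share libraries and the same contrast of neurons with glia, and carry no test.

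The genotype comparison set the 2 labelled Ehmt1Δ/+ pools without CamKII-CreER against the 2 WT pools, with plate format as a block, which leaves 1 residual degree of freedom before moderation. No member and no other gene was called by limma at an adjusted p under 0.05 in any of 5 cell groups (0% of 23853 genes in neurons, of 23780 in excitatory and 23242 in inhibitory neurons, of 12832 in oligodendrocytes and of 13686 in microglia). In neurons 1667 genes were lower and 761 higher at an unadjusted p under 0.05. The members' values nonetheless leaned 1 way. Of 57 members tested in neurons (all but Pcdhb1) 54 had a lower mean in the labelled Ehmt1Δ/+ pools, with a median log2 ratio of -0.21 against -0.03 for all genes. The smallest adjusted p of any member was 0.461. Members share the same 4 pools, and alpha and gamma genes also share constant-exon reads. Own reads of neighbours were often found together as well. Members are therefore not independent, and counts of members by direction, here and below, are descriptions.

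The lean took in the beta genes and the variable gamma genes, and its size was largest at the first gamma genes. All 21 Pcdhb genes tested had a negative ratio, with a median of -0.37, and 12 of 12 Pcdhga (median -0.21) and 7 of 7 Pcdhgb genes (-0.19) did too. The Pcdha genes did not share it (9 of 12 negative, median -0.02), nor did the Pcdhgc genes by size (3 of 3 negative, median -0.06). In both plate formats separately, 44 of 57 members were lower in the labelled Ehmt1Δ/+ pool, where 35% of all genes were. They comprised 19 of 21 Pcdhb, 12 of 12 Pcdhga, 7 of 7 Pcdhgb, 3 of 12 Pcdha, both Pcdhac and 1 of 3 Pcdhgc genes. The 3 members that were higher in both formats were Pcdha6, Pcdha7 and Pcdha8. At an unadjusted p under 0.05, 17 members were lower and 0 higher, where 6.99% of all genes were lower. This count depended on the model, as did that of all 23853 genes. It was 27 when the mean of log values was used (2176 of all genes lower), 6 with all 6 pools (592) and 1 without the plate term (48). Without any 1 of the 4 pools the median ratio of the members ranged from -0.28 to -0.17.

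The first 3 genes of the gamma cluster had the largest differences among members. Pcdhga1 was at 2.48 RPKM in neurons of the 96-well WT pool and 1.32 in the labelled Ehmt1Δ/+ pool, and at 2.27 and 0.861 in the 384-well pair. Its log2 ratio was -1.08 (SE 0.155, limma adjusted p = 0.461). Pcdhga2 was at 3.71 and 1.97 RPKM in the 96-well pair and at 4.59 and 2.40 in the 384-well pair, with a ratio of -0.89 (SE 0.101, limma adjusted p = 0.461). Pcdhga3 was at 4.82 and 3.25, and at 4.77 and 3.00 RPKM, with a ratio of -0.60 (SE 0.104, limma adjusted p = 0.461). For each of these 3 genes both labelled Ehmt1Δ/+ pools were below both WT pools. The share of neurons with own reads of Pcdhga1 was 26.9% and 12.8% in the 96-well pair and 23.5% and 9.80% in the 384-well pair. Pcdhga1, Pcdhga2 and Pcdhb3 appear in a list of genes that the study drew from these same nuclei, which therefore gives no independent evidence of their direction. Pcdhb3 had a ratio of -0.26 (SE 0.192, limma adjusted p = 0.687), with 1.35 and 0.878 RPKM in the 96-well pair but 0.898 and 0.931 in the 384-well pair.

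The first genes of the gamma cluster had lower ratios than the later ones. Over the 19 variable genes it correlated with position at a Spearman rho of 0.619 in the 96-well pair and 0.533 in the 384-well pair, against 0.198 for the Ehmt1Δ/+; iTg and iTg pair. The median ratio of the first 3 genes was -0.86 and -0.90 in the pairs without CamKII-CreER and that of the last 3 was -0.21 and -0.20. Between these ends the ratio did not move evenly, and in the 96-well pair it was nearest to 0 at Pcdhga9 (-0.045) and Pcdhgb5 (-0.047). The other clusters had no common trend, with rho of 0.643 and -0.441 over 12 Pcdha genes and 0.0143 and -0.721 over 21 Pcdhb genes in the same pairs. These values were looked at after the members' ratios were seen and carry no test.

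Pools that carried CamKII-CreER, 1 of each genotype and hence without a test, did not repeat the lean. The Ehmt1Δ/+; iTg pool was lower than the iTg pool in 29 of 57 members in neurons, with a median log2 ratio near 0 (-0.0026). Pcdhga1 was at 1.24 RPKM in the iTg pool and 1.78 in the Ehmt1Δ/+; iTg pool, both inside the range set by the 384-well WT (2.27) and labelled Ehmt1Δ/+ (0.861) pools. Pcdhga2 was at 3.53 and 3.58 RPKM and Pcdhga3 at 4.25 and 3.59. Of the 21 beta genes 15 were lower in the Ehmt1Δ/+; iTg pool. In excitatory neurons 16 were lower (median -0.19), and in inhibitory neurons 7 (median 0.28). The difference between this pair and the pairs without CamKII-CreER was not tested.

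The beta cluster as a whole was lower in both labelled Ehmt1Δ/+ pools. Its sum was 405 RPM in neurons of the 96-well WT pool and 310 in the labelled Ehmt1Δ/+ pool, and 292.6 and 225.4 in the 384-well pair, ratios of 0.767 and 0.770. The iTg pool was at 271.7 and the Ehmt1Δ/+; iTg pool at 261.4. The plate formats differed as much as the genotypes, since the 384-well WT pool lay below the 96-well labelled Ehmt1Δ/+ pool. The alpha sums were 491 and 464, and 441 and 447 RPM in these pairs, and the gamma sums 965 and 810, and 1030 and 932. In excitatory neurons the beta sum was 399 and 291.9, and 276.9 and 216.4. In inhibitory neurons it was 423 and 394, and 342.5 and 273.5.

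Within each plate format the abundant beta genes were also lower in the labelled Ehmt1Δ/+ pool. Pcdhb15 was at 5.80 and 3.86 RPKM in the 96-well pair and 5.49 and 4.10 in the 384-well pair, a log2 ratio of -0.50 (SE 0.110, limma adjusted p = 0.462). Pcdhb20 was at 5.86 and 4.27, and 4.47 and 2.99 RPKM, with a ratio of -0.51 (SE 0.106, limma adjusted p = 0.462). Pcdhb16, the most abundant beta gene, was at 8.51 and 6.41, and 5.77 and 4.28 RPKM (-0.41, limma adjusted p = 0.468). The number of beta genes with own reads per neuron was 9.52 and 7.94 in the 96-well pair, 9.33 and 7.42 in the 384-well pair, and 8.55 and 8.07 in the iTg and Ehmt1Δ/+; iTg pools. Neurons with no own read of any beta gene made up 0% and 6.04%, 2.81% and 5.88%, and 2.55% and 5.36% of these pools. After thinning, the numbers of beta genes were 9.72 and 8.14, 5.92 and 4.73, and 5.33 and 5.32 in these pairs. Neurons without a beta read then made up 0% and 5.86%, 6.67% and 13.7%, and 8.73% and 10.04%. Thus in each of the 3 pairs the pool with the Ehmt1Δ/+ label had more neurons without a beta read. At equal depth, however, the iTg and Ehmt1Δ/+; iTg pools held nearly the same number of beta genes.

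Sample titles carry a code, with 4 codes in each 96-well pool, 3 of them shared by both. In excitatory neurons the beta sum was 383, 384, 387 and 444 RPM over the codes of the WT pool and 283.2, 318.9, 267.6 and 294.9 over those of the labelled Ehmt1Δ/+ pool, so that every value of the latter was lower. In inhibitory neurons, with 9 to 19 nuclei a code, the codes overlapped, at 330 to 580 RPM in the WT pool and 272.5 to 524 in the labelled Ehmt1Δ/+ pool. The codes divide the same pooled mice and are not replicates of a genotype. In the 384-well format each pool had 1 code and that of the WT pool differed from the other 3, so that genotype and code cannot be told apart there.

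The shared part showed differences of its own. Constant-exon reads of the gamma cluster came to 128.6 and 72.2 RPM in neurons of the 96-well WT and labelled Ehmt1Δ/+ pools and to 73.5 and 49.6 in the 384-well pair, ratios of 0.561 and 0.674. The alpha shared part was 116.4 and 88.5, and 72.3 and 58.6 (0.760 and 0.811). In inhibitory neurons alone the gamma ratios were 0.518 and 1.39. In the Ehmt1Δ/+; iTg pool both were above the iTg pool, with ratios of 1.38 for gamma and 1.28 for alpha. Since the shared part was taken as a minimum over genes, it can include own reads of the lowest member. After the shared part was taken off, 47 of 57 members were still lower in the labelled Ehmt1Δ/+ pools, and the median ratio was -0.16.

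The lean took in more members in excitatory than in inhibitory neurons. In excitatory neurons 50 of 57 members had a lower mean in the labelled Ehmt1Δ/+ pools (median -0.27), 20 at an unadjusted p under 0.05 (6.21% of all genes) and 41 in both plate formats (33% of all genes). In inhibitory neurons 34 of 57 were lower (median -0.04), 2 at an unadjusted p under 0.05 (3.93% of all genes) and 21 in both formats (30% of all genes). Those 2 were Pcdhga1 and Pcdhga2. Pcdhga1 had a ratio of -1.11 in excitatory and -1.04 in inhibitory neurons, and Pcdhga2 of -0.88 and -0.97. The difference between the classes was fitted as an interaction, an analysis added after these values were seen. No member and no other of 24939 genes was called (1326 genes at an unadjusted p under 0.05, 2 of them members, Pcdhgb2 and Pcdhga4), and the smallest adjusted p of a member was 0.904. A difference between the classes in the genotype effect was therefore not shown. Leaving out the 96-well WT pool moved the excitatory median to -0.17, and leaving out the 384-well WT pool moved the inhibitory median to -0.13.

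**Figure D5:**
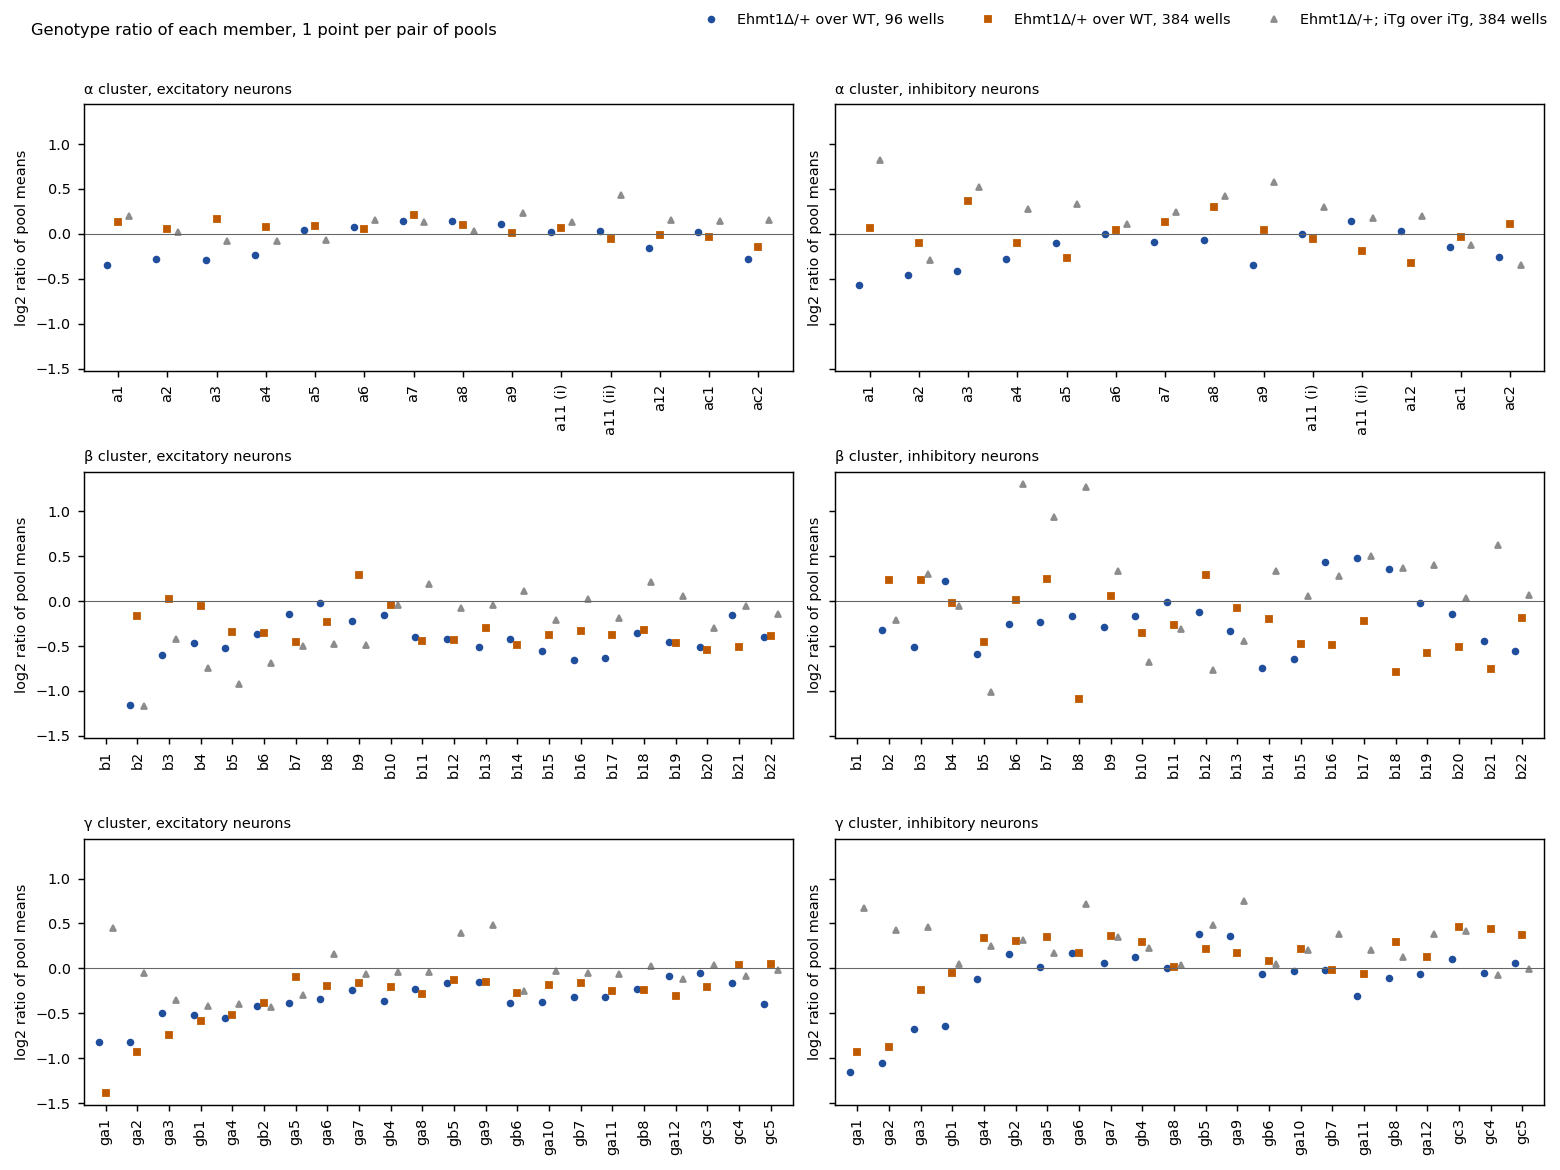
Log2 ratio of mean RPKM + 0.1 (y axis) for each member in chromosomal order (x axis), in excitatory (left) and inhibitory neurons (right), with 1 point each for labelled Ehmt1Δ/+ over WT in 96-well and in 384-well plates and for Ehmt1Δ/+; iTg over iTg. Pcdhga1 and Pcdhga2 lie lowest in the gamma cluster in both classes for the pairs without CamKII-CreER. In inhibitory neurons the Pcdhga and Pcdhgb medians of these pairs are -0.05 and -0.02 (96-well) and 0.14 and 0.21 (384-well). For Ehmt1Δ/+; iTg over iTg, 0 of 12 Pcdhga and 0 of 7 Pcdhgb genes lie below 0 there.

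In glia few members could be tested. In oligodendrocytes 24 of 28 members had a lower mean in the labelled Ehmt1Δ/+ pools (median -0.31, against -0.02 for all genes), 14 of them in both plate formats. The share of all genes was not counted beside these 2 numbers, which are descriptions. In microglia 11 of 22 were lower and 11 higher (median 0.01, against -0.02 for all genes). At an unadjusted p under 0.05 limma had 2 members lower and 4.72% of all genes in either direction in oligodendrocytes, and 1 member higher and 1.93% of all genes in microglia. The neuronal RNA in glia of the 96-well WT pool moves with these ratios, and its part in them was not tested.

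Genes that act on or with the clustered protocadherins were followed in lists set with earlier results known. Of 19 tested regulators of the clusters, such as CTCF, cohesin and chromatin silencers, 4 were called higher in inhibitory than in excitatory neurons and 0 lower. Among all 22420 genes of this comparison 22.9% were called higher and 21.1% lower. The share of regulators called higher was thus near that of all genes. The 4 regulators were Pds5b (0.46), a cohesin regulator, Dnmt1 (0.25), the maintenance DNA methyltransferase, Ehmt2 (0.24), which encodes G9a, and Stag2 (0.19), a cohesin subunit. Of 12 signalling partners 2 were higher, the receptor kinase Ret (3.11) and the kinase Fyn (0.28), and 8 were lower, among them the focal adhesion kinases Ptk2b (-2.07) and Ptk2 (-1.55), the WAVE complex gene Wasf1 (-1.02) and the adhesion gene Nlgn1 (-0.76). Of 11 protocadherins outside the clusters 7 were higher, led by Pcdh18 (4.33) and Pcdh8 (2.49), and Pcdh1 (-1.08) and Pcdh9 (-0.95) were lower. The largest difference of a clustered gene in this comparison was 0.68. None of the listed genes was called in the genotype comparisons.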

How the data were processed

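Single nuclei of mouse cortex were sequenced by RamDA-seq, a full-length total RNA method with 1 library per nucleus. Per the labels and the methods of the study, the authors trimmed reads with Fastq-mcf, mapped them to mm10 with HISAT2 2.0.4 and counted them with featureCounts (Subread 1.5.0) on Gencode genes, and the authors deposited RPKM values (reads scaled to the depth of a nucleus and the exon length of a gene) in 1 table for each plate format. Default counting is stated, but the values hold fractions of a read, so a read shared by several genes had been divided among them. Cell type labels were those of the samples and no doublet caller was run. All 2207 columns of both tables matched a sample.

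Reads per gene were recovered from the RPKM steps (tolerance 0.001 reads), and the smallest value of the alpha or gamma genes in a nucleus was taken as the shared part. Exon lengths and coordinates came from a Gencode annotation of mm10 in a release other than the one used for counting. Each pool gave 1 mean RPKM per cell type or neuron class, and log2 of this mean + 0.1 was tested with limma 3.58.1 (R 4.3.3, lmFit and eBayes) over genes above 0 in at least 10% of nuclei of 1 group, in every pool of that group. P-values were adjusted by Benjamini-Hochberg over all genes tested, with a threshold of 0.05. Fold changes on this scale understate those of low genes. Because nuclei of a pool are not replicates, pools took the place of the single nuclei tested in the study. Steps were tested on simulated data. For the split into shared and own reads, the simulation drew the own reads of each gene independently. In the data, own reads of neighbours are often found together, so the simulation cannot show how well the split worked there. Intervals are exact binomial at 95% and cover counting error only. Thinning took each neuron to 298762 (96-well) or 48585 (384-well) reads, the percentile 10 of read totals. Fractions of an own read were first rounded up or down at random.

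The members and gene lists were chosen with earlier results of these data known. Named members were the C-type genes, the 3 highest and the lowest gene of each other family in neurons, the 3 at each end of the genotype ratio among members with 1 sign in both plate formats, the 3 at each end of the comparison of classes, members called, and 3 listed by the study (Pcdhga1, Pcdhga2, Pcdhb3). No sequence of the members is printed.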

Additional observations from a re-analysis of the deposited data

Results flagged for a closer look

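In 9 members the labelled Ehmt1Δ/+ pools were lower than WT in excitatory neurons and higher than WT in inhibitory neurons, in both plate formats, and in 1 member, Pcdha5, the reverse held. All 9 but Pcdhgc3 are variable genes of the gamma cluster. Pcdhgb2, an early gene of that cluster, had log2 ratios of -0.42 and -0.39 in excitatory neurons (96-well, then 384-well) and 0.16 and 0.31 in inhibitory neurons, and the genotype effect differed between the classes by 0.64 (SE 0.185). The difference was 0.50 for Pcdhgb4, 0.44 for Pcdhgb5, 0.44 for Pcdhga6, 0.42 for Pcdhga9, 0.42 for Pcdhgc3, 0.41 for Pcdhga5, 0.41 for Pcdhga7, 0.27 for Pcdhga8 and -0.25 for Pcdha5. A limma interaction fit over the 4 pools, chosen after seeing the data, gave unadjusted p-values of 0.025 (Pcdhgb2) to 0.297 (Pcdhga8) and adjusted p-values of at least 0.904, so none of the 10 differences passed the test. The inhibitory means rest on 43 to 73 nuclei a pool.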

How the results depend on the processing

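No paired analysis was possible because the replicate numbers only follow accession order and pair no nuclei. Pools took the place of nuclei, and the comparison of classes is matched by pool through its pool term. In the genotype comparison no member was called in neurons, excitatory neurons, inhibitory neurons or microglia under any alternative. The fits that leave out a pool keep 3 pools, have no plate term, and assume that the lone pool of a genotype varies like the others. Over these fits the genes called ranged from 0 to 1 in excitatory neurons (1 without the 384-well labelled Ehmt1Δ/+ pool), from 0 to 29 in inhibitory neurons (1 without 96-well WT, 29 without the 96-well and 6 without the 384-well labelled Ehmt1Δ/+ pool) and from 1 to 39 in oligodendrocytes (7 without 96-well WT, 39 without the 96-well labelled Ehmt1Δ/+ pool, 2 without 384-well WT and 1 without the 384-well labelled Ehmt1Δ/+ pool). The members called in oligodendrocytes ranged from 0 to 1, the 1 being Pcdhb18 without the 96-well labelled Ehmt1Δ/+ pool. The median ratio of the members ranged from -0.30 to -0.17 in excitatory and from -0.13 to 0.032 in inhibitory neurons. With means of log values 6 genes, and with a variance trend 2 genes, were called in oligodendrocytes.

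Of inhibitory against excitatory neurons, 7 members were called with no filter and 3 (with 4570 genes) without the pool term, which leaves the differences between pools in the error. Without a pool the members called ranged from 6 to 14 (6 without 96-well WT, 6 without 384-well WT and 7 without the 96-well labelled Ehmt1Δ/+ pool). Small differences changed sign. In means of log values Pcdhgb5 was at -0.038, Pcdhgb6 at -0.019 and Pcdhgc3 at -0.021, and with the shared part taken off Pcdhga1 was at 0.0046. Without a pool the ranges were -0.16 to 0.066 for Pcdhga1, -0.056 to 0.13 for Pcdhgb5, -0.021 to 0.11 for Pcdhgb6 and -0.13 to 0.025 for Pcdhgb7.

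In neurons the genotype ratio changed sign with all 6 pools for Pcdha1 (0.0075), Pcdhac1 (0.023), Pcdhgb5 (0.099) and Pcdhgc3 (0.0029), and with the shared part taken off for Pcdhac1 (0.033), Pcdhgc3 (0.080) and Pcdhgc4 (0.011). Without a pool it ranged from -0.42 to 0.26 for Pcdha3, -0.070 to 0.038 for Pcdhac1, -0.94 to 0.24 for Pcdhb18, -0.53 to 0.0088 for Pcdhb3, -0.36 to 0.068 for Pcdhga12, -0.39 to 0.059 for Pcdhga5, -0.33 to 0.23 for Pcdhgb5, -0.44 to 0.32 for Pcdhgc4 and -0.39 to 0.24 for Pcdhgc5. None of these was called under any of these settings. The count of 21 beta genes with a negative ratio was 17 to 21 of 21 without a pool and 21 or 22 under the other alternatives.

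The share of neurons above 0 depends on what is counted. As medians over members, thinned, with at least 1 read and with at least 1 own read, it was 91.99%, 92.4% and 85.4% for Pcdha, 94.5%, 96.1% and 92.4% for Pcdhac, 29.1%, 37.9% and 37.9% for Pcdhb, 93.5%, 90.4% and 87.7% for Pcdhga, 94.4%, 94.03% and 92.6% for Pcdhgb, and 93.4%, 90.5% and 86.9% for Pcdhgc. The members with own reads per neuron were 8.51 alpha and 4.35 C-type genes when 2 own reads were asked for, and 7.50 alpha, 6.53 beta, 13.03 gamma and 3.85 C-type genes after thinning. Thinning lowers depth and rounds fractions of an own read at random, and the stricter count asks for more reads by construction. The causes of the other changes above were not tested.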

Other observations

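Some beta genes were not silent in oligodendrocytes. Pcdhb6 was at 5.99 RPKM in oligodendrocytes of the 96-well WT pool, where neurons were at 3.26, and at 0.574 to 2.09 in the other 5 pools, where neurons were at 1.76 to 2.49. Pcdhb7 was at 0.624 to 4.06 RPKM in oligodendrocytes and 2.30 to 3.27 in neurons, and Pcdhb8 at 0 to 2.83 and 1.40 to 2.52. These are the 3 beta genes tested whose pools overlapped between the cell types, and they are neighbours on the chromosome. In each of them the 96-well WT pool, whose oligodendrocytes held the most neuronal marker RNA, was the highest oligodendrocyte value, and the part of that RNA was not tested. In microglia Pcdhb6 and Pcdhb8 were listed at 0 in all 6 pools. Pcdhb7 and Pcdhb8 were chosen after their values were seen.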
